A study of Mus musculus with 8 samples.

Results

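CD8 T cells of the mouse liver were taken from droplet libraries of 8 wild-type C57BL/6 mice. A barcode was kept with more than 500 genes and under 25% of its unique molecular identifiers (UMIs, 1 for each captured mRNA molecule) from mitochondrial genes. A kept barcode was called a CD8 T cell with at least 2 UMIs of Cd3d, Cd3e and Cd3g together, at least 2 UMIs of Cd8a and Cd8b1 together, and 0 UMIs of Cd4, Klrb1c, Ncr1, Trdc, Top2a, Cd79a and Csf1r. The cells were thus chosen by their raw UMI counts of these 12 genes, which are not results. They gave 1569 CD8 T cells of 80474 kept cells and 88581 barcodes.

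The 2 control mice had a normal diet and drinking water. The 3 HFD+F+CCl4 mice had a high-fat diet, a fructose solution and intraperitoneal carbon tetrachloride (CCl4, a liver toxin) once a week, and the 3 WD+F+CCl4 mice had the same with a western diet, each for 16 weeks. Both models share fructose and CCl4, so the diets cannot be told apart from these in any comparison with control. Together they are called NASH mice (nonalcoholic steatohepatitis), 6 in all. The sources used here do not give sex or age. Each mouse gave 1 library of perfused, dissociated liver after removal of dead cells and lysis of red cells. The sample labels name no batch, so mouse and library cannot be told apart.

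CD8 T cells read peptides on MHC class I with a T cell receptor and kill target cells with perforin, granzymes and Fas ligand. Naive cells carry the receptor Ccr7 that admits them to lymph nodes and the transcription factors Tcf7 and Lef1. Cells that meet antigen lose these and gain granzymes and chemokines, and cells under lasting stimulation gain inhibitory receptors such as Pdcd1 and Lag3 and the transcription factor Tox.

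Control replicates 1 and 2 gave 263 and 24 CD8 T cells, HFD+F+CCl4 replicates 1, 2 and 3 gave 26, 287 and 284, and WD+F+CCl4 replicates 1, 2 and 3 gave 160, 196 and 329. Their summed UMIs were 844571 and 54613 in the control mice, 88940, 848293 and 933462 in the HFD+F+CCl4 mice, and 592032, 547019 and 828474 for the WD+F+CCl4 mice. A single UMI was thus worth 18.3 CPM (counts per 1e6 UMIs of that sum) in control replicate 2 and 11.2 CPM in HFD+F+CCl4 replicate 1, and between 1.07 and 1.83 CPM in the other mice. In a principal component analysis of the sums, control replicate 2 stood apart on the first component (-111, against -5.82 to 28.9 in the others) and HFD+F+CCl4 replicate 1 on the second (-93.9, against 4.35 to 22.5). The control arm therefore rests largely on control replicate 1. No CD8 T cell shared its barcode with a CD8 T cell of another library, and 27 shared it with another kept cell.

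The cells carried the genes of alpha-beta T cells that the limits did not use. Trac, the constant part of the receptor's alpha chain, stood at 639 and 275 CPM in control replicates 1 and 2, at 596, 635 and 703 CPM in the HFD+F+CCl4 mice and at 535, 461 and 569.7 CPM in the WD+F+CCl4 mice. Among the limits' own genes, Cd8b1 lay between 914 and 1205 CPM and Cd3e between 618 and 1396 CPM in all 8 mice. Gzmk, Pdcd1 and Tox, which were also set as markers, were low in control replicate 1 and varied widely among the NASH mice, so they do not mark the whole set. Just outside the limits lay 292 cells with 1 UMI of Cd8a or Cd8b1 and 70 with 1 UMI of the Cd3 genes, and 268 members had exactly 2 UMIs in one of these sums. Cells with 1 Cd8 UMI had 574 CPM of Trac, near the 601 CPM of members with exactly 2. Of 2892 cells that met the Cd3 and Cd8 limits, 651 failed on Csf1r and 583 on Top2a, a gene of dividing cells, so cycling CD8 T cells are not described here.

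Of the T cell lists, the cytotoxic one had the most genes called higher in NASH, and the promoters of 3 of them, Gzmb, Fasl and Xcl1, are shown because all 3 genes rose in the sums. Each is the 250 bases before the RefSeq start (GRCm38.p6), printed 5′ to 3′ on the gene's own strand, the minus strand. Gzmb is at chr14:56262335-56262584, Fasl at chr1:161788496-161788745 and Xcl1 at chr1:164935523-164935772, where 43 bases overlap an exon of Gm20743 on the other strand. Capitals mark matches to any of 5 motifs on either strand.
Gzmb: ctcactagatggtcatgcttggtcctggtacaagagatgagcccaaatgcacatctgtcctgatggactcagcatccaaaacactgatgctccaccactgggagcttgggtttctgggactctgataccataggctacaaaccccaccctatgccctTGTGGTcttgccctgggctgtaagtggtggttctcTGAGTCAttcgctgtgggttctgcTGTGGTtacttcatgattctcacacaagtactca
Fasl: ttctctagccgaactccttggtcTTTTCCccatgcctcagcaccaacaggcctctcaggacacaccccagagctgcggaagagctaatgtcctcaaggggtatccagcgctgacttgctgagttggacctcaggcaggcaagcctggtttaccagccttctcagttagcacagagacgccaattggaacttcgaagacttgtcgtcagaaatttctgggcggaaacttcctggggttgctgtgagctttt
Xcl1: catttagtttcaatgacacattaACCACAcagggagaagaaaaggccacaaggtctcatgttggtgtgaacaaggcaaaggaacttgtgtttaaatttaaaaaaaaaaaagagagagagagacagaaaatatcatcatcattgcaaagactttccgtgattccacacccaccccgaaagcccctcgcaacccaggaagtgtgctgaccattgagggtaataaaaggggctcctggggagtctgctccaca
Gzmb held 1 AP-1 site (TGANTCA) and 2 RUNX cores (TGTGGT), Fasl held 1 NFAT core (GGAAAA) and Xcl1 held 1 RUNX core, the NFAT and Xcl1 matches being on the opposite strand. None held the T-box site AGGTGTGA or the TCF/LEF site CTTTGAT. Over 27025 promoters, 6.87% held the AP-1 site, 14.2% the RUNX core, 20.6% the NFAT core, 1.14% the T-box site and 3.23% the TCF/LEF site. The matches are letters in a window and were not tested as binding sites.

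CD8 T cells did not differ detectably in number between control and NASH livers as a share of all kept cells. They made up 2.44% and 0.576% of the kept cells of control replicates 1 and 2, 0.233%, 2.84% and 2.67% for the HFD+F+CCl4 mice, and 1.33%, 1.99% and 2.81% for the WD+F+CCl4 mice. NASH mice averaged 1.98% ± 1.04 (SD, n = 6) and controls 1.51% ± 1.32 (SD, n = 2), so NASH mice were 0.471 percentage points higher (exact two-sided permutation test, p = 0.643, adjusted p = 0.9 over 2 comparisons). The groups overlapped, and the sign turned under 5 alternatives, among them -0.460 without control replicate 2 and -1.11 with 1 UMI in place of 2, where control replicate 2 rose from 24 to 138 cells. Between the models, the mean was 2.04% ± 0.739 in WD+F+CCl4 and 1.91% ± 1.46 in HFD+F+CCl4 mice (SD, n = 3 each, exact two-sided permutation test, p = 0.9, where 0.1 is the smallest that 3 against 3 allow). HFD+F+CCl4 replicate 1 was the lowest of all 8 mice, and the difference of 0.133 turned to -0.706 without it.

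Among T cells, taken as cells with at least 2 Cd3 UMIs, CD8 T cells were a larger part in NASH mice. They made up 5.17% and 2.28% in control replicates 1 and 2, 5.76%, 21.6% and 17.8% for the HFD+F+CCl4 mice, and 16.2%, 16.04% and 20.9% for the WD+F+CCl4 mice. All 6 NASH mice lay above both controls, though HFD+F+CCl4 replicate 1 lay within the 95% exact binomial interval of control replicate 1 (4.58% to 5.81%). The difference was 12.7 percentage points (exact two-sided permutation test, unadjusted p = 0.0357, the smallest that 6 against 2 allow). Control replicate 2 had 24 CD8 T cells here and 138 with 1 UMI in place of 2, a limit not run for this share. A share is tied to what else is counted. NKT-like cells numbered 1147 among 5088 T cells in control replicate 1 and 164 among 1051 in control replicate 2. In single NASH mice they numbered 32 to 115 among 451 to 1592. Their part in the difference was not tested. Intervals here cover counting error only.

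**Figure D1:**
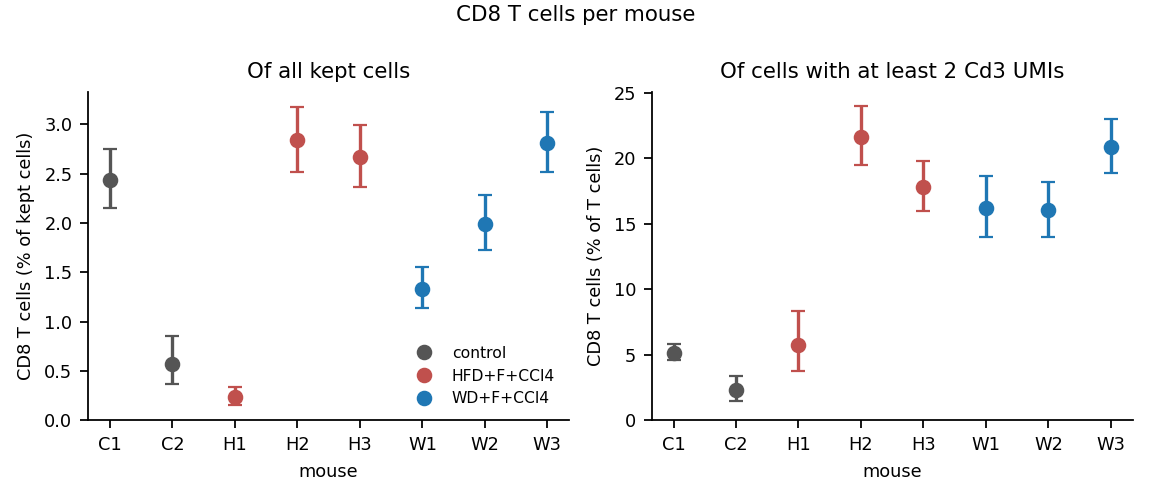
CD8 T cells as a percent of kept cells and of T cells in each mouse, with points for mice (C1 and C2 control, H1 to H3 HFD+F+CCl4, W1 to W3 WD+F+CCl4, numbered by replicate) and bars for 95% exact binomial intervals. The groups overlap among kept cells, while among T cells the controls sit at 5.17% and 2.28% and the NASH mice between 5.76% and 21.6%.

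UMIs were then summed over the CD8 T cells of each mouse and compared with edgeR's quasi-likelihood test in 1 fit of all 8 mice, with Benjamini-Hochberg adjustment over the 8729 genes tested. Fold changes are log2 with their standard error. Between NASH and control 196 genes passed an adjusted p of 0.05, or 2.25% of those tested, 63 higher (0.722%) and 133 lower (1.52%). Without control replicate 1 only 4 genes passed, namely Gm10076, Serpina1d, Igkc and Igha. Of the 40 genes of the T cell lists or of the largest changes outside them that are called below, Igha alone was among these, and the other 39 had adjusted p-values of 0.348 to 0.892 (edgeR) and lost their calls. Without control replicate 1 the control arm is 1 mouse, so the spread comes from the NASH mice alone. Some fitted changes then stayed close, as for Cd28 (-1.56, against -1.44 with all mice) and Itgae (-2.01, against -2.33). Others shrank, as for Lef1 (-0.79, against -2.31) and Rnf43 (1.28, against 3.62). Without HFD+F+CCl4 replicate 2 or 3, 65 and 68 genes passed, and without WD+F+CCl4 replicate 2, 127. Leaving out HFD+F+CCl4 replicate 1 gave 346 and leaving out WD+F+CCl4 replicate 3 gave 323. DESeq2 called 102, of which 86 were among the 196. Of the named genes that passed, the call held least often for Cxcr4 (6 of 19), Dusp2 and Csf1 (8 of 19 each) and Xcl1 (9 of 20), while Gzmk and Psmb8, not called in this fit, were called in 6 and 7 of 20. Each model was also set against control. For HFD+F+CCl4, 111 genes passed (1.27%), 46 higher (0.527%) and 65 lower (0.745%), but 0 passed without control replicate 1, 7 and 9 without HFD+F+CCl4 replicate 2 or 3, 279 without HFD+F+CCl4 replicate 1 and 512 when WD+F+CCl4 replicate 3 was left out. For WD+F+CCl4, 81 passed (0.928%), 26 higher (0.298%) and 55 lower (0.63%), but 4 without control replicate 1, 33 without WD+F+CCl4 replicate 2 and 51 without HFD+F+CCl4 replicate 2. Both comparisons use the same control mice.

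Among genes of naive cells and of lymph node homing, 18 in all and all tested, 9 fell and 0 rose. Over all genes tested, 1.52% fell and 0.722% rose, the shares to set beside each list below. The lists were chosen with earlier results of these data known, so their counts are a description. The median log2 fold change of the 18 was -1.73, beside 0.06 over all genes tested. The 4 with the largest falls were Ccr9, Lef1, Tcf7 and Ccr7. In 12 of the 18 every NASH mouse lay below both controls, which held for 8.25% of all genes tested, while 8.6% had every NASH mouse above both.

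Ccr9, a chemokine receptor of thymic and gut-homing T cells (chr9:123678439-123784330, plus strand), stood at 154 and 385 CPM in control replicates 1 and 2, at 11.2, 29.5 and 9.64 CPM in the HFD+F+CCl4 mice and at 49.0, 16.5 and 15.7 CPM in the WD+F+CCl4 mice. Its log2 fold change was -3.22 ± 0.46 (adjusted p = 0.00345), with no overlap of the groups. Lef1, a transcription factor of naive cells (chr3:131110471-131224356, plus strand), stood at 508 and 183 CPM in the controls, at 101, 53.0 and 45.0 CPM in the HFD+F+CCl4 mice and at 162, 132 and 37.4 CPM in the WD+F+CCl4 mice. The change was -2.31 ± 0.48 (adjusted p = 0.0286), and WD+F+CCl4 replicate 1 came close to control replicate 2.

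Tcf7, which encodes the factor that keeps naive and memory cells able to renew (chr11:52252371-52283014, minus strand), stood at 688 and 439 CPM in the controls, at 281, 64.8 and 67.5 CPM in the HFD+F+CCl4 mice and at 149, 168 and 95.4 CPM in the WD+F+CCl4 mice, a change of -2.27 ± 0.43 (adjusted p = 0.0180). Ccr7, the receptor that brings T cells into lymph nodes (chr11:99144196-99155077, minus strand), stood at 269 and 293 CPM in the controls, at 89.9, 28.3 and 58.9 CPM in the HFD+F+CCl4 mice and at 105, 62.2 and 27.8 CPM in the WD+F+CCl4 mice, a change of -2.26 ± 0.42 (adjusted p = 0.0177). For both, HFD+F+CCl4 replicate 1, with 26 cells, was the NASH mouse or among the NASH mice nearest the controls. Il7r, a cytokine receptor that naive and memory cells need to survive, fell by 1.77 on the log2 scale (adjusted p = 0.0370). Actn1, Bach2, Il6ra and Igfbp4 made up the 9.

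Without control replicate 1 the fitted change was -0.79 for Lef1, -1.47 for Tcf7, -1.94 for Ccr7 and -3.65 for Ccr9. The calls of this list did not hold in that fit. Fewer of the list passed without control replicate 2 and more without both mice of under 50 cells, each a fit with 1 control mouse. With cells of over 0.5% hepatocyte UMIs left out, 5 of the 18 fell, beside 64 of all 8310 genes tested in that setting.

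Among cytotoxic effectors and cytokines, 20 genes and all tested, 6 rose and 0 fell, beside 0.722% and 1.52% of all genes tested. The median log2 fold change was 1.97, beside 0.06 over all genes tested, and all 20 fitted changes were above 0. The 6 were Ccl4, Gzmb, Fasl, Xcl1, Ccl5 and Cst7. None of them passed without control replicate 1, where the fitted change was 2.51 for Fasl, 1.82 for Xcl1, 2.96 for Gzmb and 5.66 for Ccl4. Fewer of the list passed without control replicate 2 and more without both mice of under 50 cells, each a fit with 1 control mouse. With cells of over 0.5% hepatocyte UMIs left out, 3 of the list rose, beside 30 of all 8310 genes tested in that setting. In the comparisons of each model with control, 5 of the 20 rose for HFD+F+CCl4 and 2 for WD+F+CCl4, beside 0.527% and 0.298% of all genes. Of the 18 naive and homing genes 7 and 2 fell, beside 0.745% and 0.63%. 

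Gzmb, the granzyme that sets off death of the target cell (chr14:56258838-56262260, minus strand), stood at 13.0 and 54.9 CPM in control replicates 1 and 2, at 157, 379.6 and 349 CPM in the HFD+F+CCl4 mice and at 375, 216 and 384 CPM in the WD+F+CCl4 mice. It was high in every NASH mouse and did not follow the diet, with a change of 4.11 ± 0.56 (adjusted p = 0.00306), and passed in 18 of 20 alternatives. Ccl4, a chemokine released on activation (chr11:83662584-83664683, plus strand), spread far more among the NASH mice. It stood at 22.5 and 36.6 CPM in the controls, at 214, 3604 and 5698 CPM in the HFD+F+CCl4 mice and at 544, 212 and 1073 CPM in the WD+F+CCl4 mice, a change of 5.76 ± 1.23 (adjusted p = 0.0303).

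Fasl, the ligand of the death receptor Fas (chr1:161780689-161788495, minus strand), stood at 3.55 and 18.3 CPM in the controls, at 22.5, 108 and 105 CPM in the HFD+F+CCl4 mice and at 43.9, 49.4 and 101 CPM in the WD+F+CCl4 mice, a change of 3.94 ± 0.72 (adjusted p = 0.0160). The control values are 3 UMIs and 1 UMI. Xcl1, a chemokine that attracts cross-presenting dendritic cells (chr1:164931644-164935527, minus strand), stood at 33.2 and 128 CPM in the controls, at 135, 477 and 742 CPM in the HFD+F+CCl4 mice and at 169, 234 and 303 CPM in the WD+F+CCl4 mice, a change of 2.75 ± 0.64 (adjusted p = 0.0448). Control replicate 2 and HFD+F+CCl4 replicate 1 were nearly level. Ccl5, the most abundant of the 6 in counts, rose from 1611 and 4266 CPM in the controls to between 6273 and 18703 CPM in the NASH mice (2.35 ± 0.54, adjusted p = 0.0427). Cst7, which encodes a protease inhibitor of cytotoxic cells, rose by 2.07 ± 0.47 (adjusted p = 0.0404).

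Gzma, another granzyme, did not pass (2.24 ± 1.24, adjusted p = 0.391). It stood at 41.4 and 824 CPM in the controls, at 101, 3051 and 3339 CPM in the HFD+F+CCl4 mice and at 351, 243 and 2033 CPM in the WD+F+CCl4 mice, so that control replicate 2 lay above 3 NASH mice. The NASH mice above it, HFD+F+CCl4 replicates 2 and 3 and WD+F+CCl4 replicate 3, were also the highest in Pdcd1, Lag3 and Tox.

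**Figure D2:**
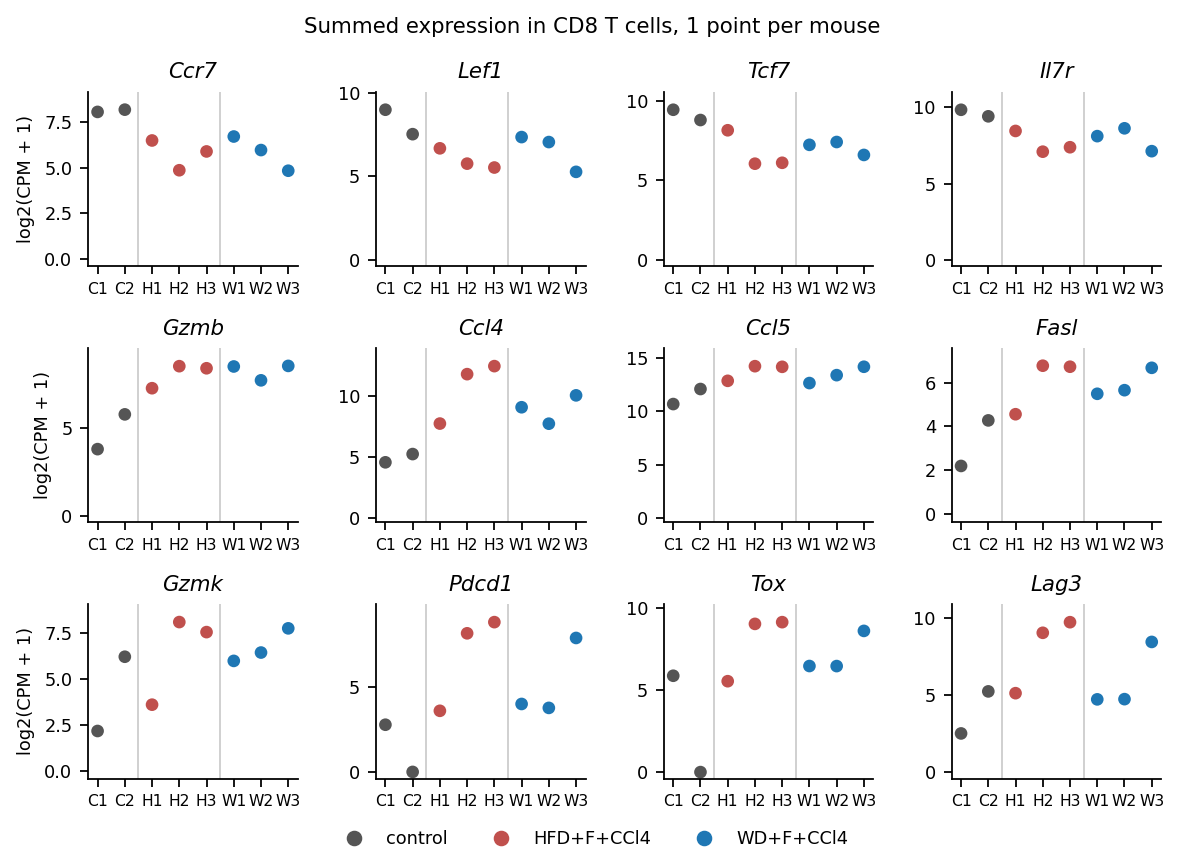
Level of 12 genes as log2(CPM + 1) in the summed CD8 T cells, with 1 point per mouse (C1 and C2 control, H1 to H3 HFD+F+CCl4, W1 to W3 WD+F+CCl4, numbered by replicate). In CPM, Gzmb lies between 157 and 384 in all 6 NASH mice, while Pdcd1 lies at 241 or above in H2, H3 and W3 and at 15.2 or below in the other NASH mice.

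Checkpoint and exhaustion genes had the highest median of the T cell lists, 2.91 over 19 genes tested, but only Bhlhe40 passed. For HFD+F+CCl4 against control 3 passed, Bhlhe40, Havcr2 and the nuclear receptor gene Nr4a2, and for WD+F+CCl4 against control 0. Bhlhe40, a transcription factor of activated T cells (chr6:108660629-108666925, plus strand), stood at 10.7 and 18.3 CPM in the controls, at 101, 128 and 168 CPM in the HFD+F+CCl4 mice and at 27.0, 43.9 and 106 CPM in the WD+F+CCl4 mice, a change of 2.91 ± 0.60 (adjusted p = 0.0267). It did not pass without either control mouse, nor without HFD+F+CCl4 replicate 2 or 3. The fitted change stayed at 2.58 to 3.06 whichever mouse was left out.

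The inhibitory receptor genes split the NASH mice. Pdcd1, which encodes PD-1 (chr1:94038305-94052553, minus strand), stood at 5.92 and 0 CPM in the controls, at 11.2, 292 and 463 CPM in the HFD+F+CCl4 mice and at 15.2, 12.8 and 241 CPM in the WD+F+CCl4 mice. Lag3, a receptor for MHC class II (chr6:124904361-124911705, minus strand), stood at 4.74 and 36.6 CPM in the controls, at 33.7, 516 and 830.2 CPM in the HFD+F+CCl4 mice and at 25.3, 25.6 and 343 CPM in the WD+F+CCl4 mice. HFD+F+CCl4 replicates 2 and 3 and WD+F+CCl4 replicate 3 were high in both, and the other NASH mice were near the controls.

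Tox, the transcription factor of exhausted cells (chr4:6686353-6991557, minus strand), stood at 56.8 and 0 CPM in the controls, at 45.0, 513 and 552 CPM in the HFD+F+CCl4 mice and at 86.1, 85.9 and 381 CPM in the WD+F+CCl4 mice. Gzmk, a granzyme of memory cells (chr13:113171608-113225908, minus strand), stood at 3.55 and 73.2 CPM in the controls, at 11.2, 272 and 186 CPM in the HFD+F+CCl4 mice and at 62.5, 85.9 and 215 CPM in the WD+F+CCl4 mice. None of the 4 passed, with changes of 4.73 ± 1.60 for Pdcd1 (adjusted p = 0.153), 4.99 ± 1.60 for Lag3 (adjusted p = 0.131), 2.44 ± 0.86 for Tox (adjusted p = 0.171) and 3.91 ± 1.07 for Gzmk (adjusted p = 0.0815). Without control replicate 1 the change was 1.45 for Gzmk and 3.20 for Lag3, and for Pdcd1 and Tox the remaining control was at 0, so no fold is given. Havcr2, another inhibitory receptor, had 2 UMIs in the controls and 209 in the NASH mice, a pooled ratio of 24.5 (95% counting interval 6.69 to 203), and did not pass (adjusted p = 0.0760). Of the 209, cells with a Pdcd1 or Lag3 UMI held 106 in HFD+F+CCl4 replicate 3 and 66 in HFD+F+CCl4 replicate 2. They held at most 17 in any other NASH mouse, so the ratio rests largely on HFD+F+CCl4 replicates 2 and 3. The counting interval does not cover the spread between mice.

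Counted by cell, after each cell was thinned to 1000 UMIs, a Pdcd1 UMI was found in 0.76% and 0% of CD8 T cells of control replicates 1 and 2 and in 3.85%, 27.1% and 34.2% for the HFD+F+CCl4 mice and 1.88%, 1.03% and 20.5% for the WD+F+CCl4 mice. The 0 of 22 cells in control replicate 2 allows up to 13.6%. The means were 14.8% ± 14.4 (SD, n = 6) and 0.38% ± 0.538 (SD, n = 2), without a detectable difference (exact two-sided permutation test, p = 0.143, adjusted p = 0.25 over 3 genes). For Tox the means were 21.1% ± 18.3 and 3.04% ± 4.30 (exact permutation test, p = 0.214) and for Gzmk 13.3% ± 7.28 and 4.74% ± 6.16 (exact permutation test, p = 0.25), each 0.25 after adjustment. Tox was in 38.9%, 39.9% and 33.9% of cells of HFD+F+CCl4 replicates 2 and 3 and WD+F+CCl4 replicate 3, and in at most 7.22% of cells in any other mouse.

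B cells served as the background for free RNA. Thinned in the same way, they held a Pdcd1 UMI in 0% of cells in every mouse, a Gzmk UMI in at most 0.926% and a Tox UMI in at most 1.85%. Over the cells of at least 1000 UMIs that thinning keeps, median depths before thinning were 1522 to 4064 UMIs in B cells and 1926 to 3388 in CD8 T cells. Unthinned and over all cells, Pdcd1 was in 1.52% and 0% of CD8 T cells in the controls and in 45.6%, 57.7% and 37.1% in the 3 high mice, against at most 1.83% of B cells, at median depths of 1864 to 3388 and 1136 to 3658 UMIs.

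In the 3 high mice, cells with a Pdcd1 or Lag3 UMI numbered 197, 197 and 200 and those without 90, 87 and 129 (HFD+F+CCl4 replicates 2 and 3 and WD+F+CCl4 replicate 3). These cells were divided by Pdcd1 and Lag3 themselves, so what follows is a description. Median UMIs per cell were 2668, 3042 and 2136 with and 2928, 3021 and 2218 without, so depth was similar. Cells with a UMI had 4120, 4635 and 2697 CPM of Gzma, against 868, 517 and 1084 CPM in cells without. They had 655, 771 and 491 CPM of Tox against 222, 74.9 and 226 CPM, and 715, 689 and 622 CPM of Cxcr6, a receptor of liver-resident T cells, against 226, 323 and 302 CPM. Il7r went the other way, at 29.9, 34.4 and 32.8 CPM against 351, 453 and 290.0 CPM. Ly6c2, a surface protein of memory and circulating cells, stood at 93.1, 103 and 57.5 CPM against 1129, 1454 and 668 CPM. Eomes, a T-box factor, was close in both, at 91.3, 86.0 and 123 CPM against 78.9, 81.7 and 90.8 CPM in these 3 mice. In the other 3 NASH mice only 2, 13 and 12 cells had a UMI (HFD+F+CCl4 replicate 1 and WD+F+CCl4 replicates 1 and 2). Tox, at 466, 242 and 219 CPM with a UMI against 12.1, 73.2 and 77.7 CPM without, Cxcr6, at 466, 285 and 313 against 109, 146 and 190.3 CPM, and Ly6c2, at 1397, 659 and 813 against 1843, 1608 and 1681 CPM, kept that order in all 3. Il7r kept it in 2 of 3, at 0, 285 and 219 against 376, 274 and 404 CPM. Gzma was lower in cells with a UMI, at 0, 0 and 156 against 109, 381 and 249 CPM. These cells held 0, 0 and 5 Gzma UMIs, and the 2 cells of HFD+F+CCl4 replicate 1 are too few to give an order. Eomes, close in the 3 high mice, was here at 931, 132 and 469 CPM with a UMI against 242, 45.7 and 71.8 CPM without. The former are 6, 6 and 15 Eomes UMIs. In control replicates 1 and 2, 8 and 2 cells had a UMI. There Ly6c2 had the opposite order, at 1723 and 3555 CPM with a UMI against 598 and 485 CPM without. Cxcr6, at 260 and 646 against 65.1 and 194 CPM, kept the order of the 3 high mice. So did Il7r, at 748 and 646 against 918 and 679 CPM. Gzma was mixed, at 455 and 0 against 25.8 and 873 CPM. Tox was at 97.6 and 0 against 55.3 and 0 CPM.

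**Figure D3:**
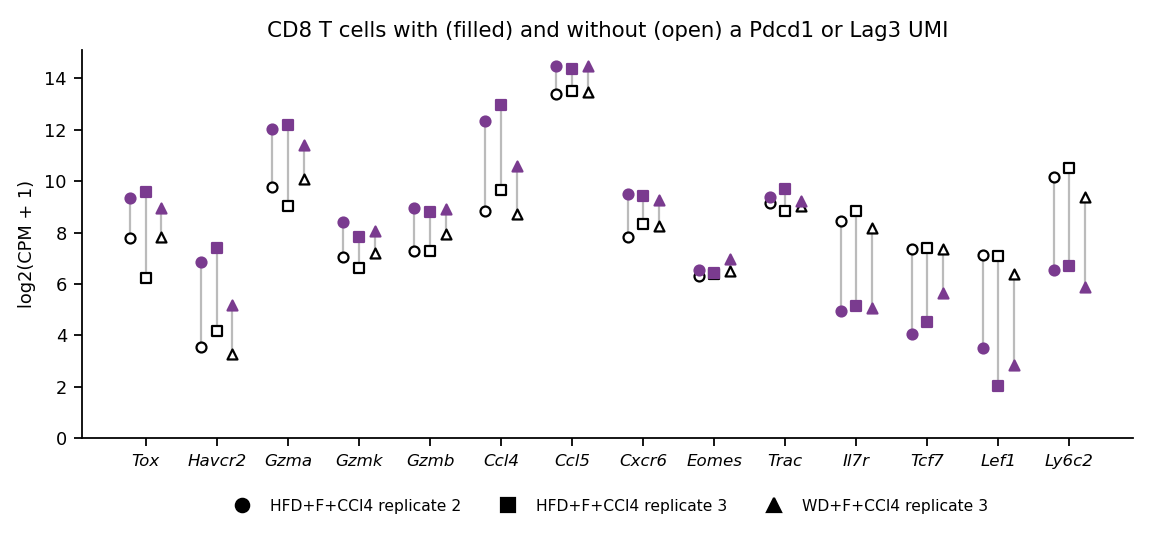
Level as log2(CPM + 1) of 14 genes in cells with (filled) and without (open) a Pdcd1 or Lag3 UMI, with circles for HFD+F+CCl4 replicate 2, squares for HFD+F+CCl4 replicate 3 and triangles for WD+F+CCl4 replicate 3, and a grey line joining the values of a mouse. Gzma is higher and Il7r lower in the cells with a UMI in all 3 mice (in HFD+F+CCl4 replicate 2, Gzma 4120 against 868 CPM and Il7r 29.9 against 351 CPM).

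Of 13 genes of circulating effector cells tested, 2 rose and 0 fell, with a median of 1.23. S100a6, which encodes a calcium-binding protein (chr3:90612882-90624181, plus strand), stood at 221 and 604 CPM in the controls, at 1091, 2630.0 and 1754 CPM in the HFD+F+CCl4 mice and at 1547, 1585 and 2402 CPM in the WD+F+CCl4 mice, a change of 2.44 ± 0.45 (adjusted p = 0.0161) that passed in 19 of 20 alternatives. Cx3cr1, a chemokine receptor of effector cells in blood (chr9:119901616-120069879, minus strand), stood at 13.0 and 36.6 CPM in the controls, at 45.0, 97.8 and 125 CPM in the HFD+F+CCl4 mice and at 45.6, 95.1 and 68.8 CPM in the WD+F+CCl4 mice, a change of 2.38 ± 0.52 (adjusted p = 0.0311). The lowest NASH mice were close to control replicate 2. Ly6c2 of the same list did not pass (0.72 ± 0.64, adjusted p = 0.624), with 639 and 659 CPM in the controls, 1810.2, 434 and 528 CPM in the HFD+F+CCl4 mice and 1535, 1631 and 309 CPM in the WD+F+CCl4 mice. The NASH mice low in Pdcd1 were those high in Ly6c2, 3 above and 3 below both controls.

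Tissue residency genes had 0 higher and 2 lower of 16 tested, with a median of 0.32. Itgae, the integrin CD103 of resident cells in epithelia (chr11:73090583-73147446, plus strand), stood at 49.7 and 54.9 CPM in the controls, at 0, 5.89 and 10.7 CPM in the HFD+F+CCl4 mice and at 6.76, 11.0 and 20.5 CPM in the WD+F+CCl4 mice, a change of -2.33 ± 0.45 (adjusted p = 0.0227). Naive CD8 T cells also carry this integrin in mice. Cxcr4, a chemokine receptor, fell by 1.66 ± 0.39 on the log2 scale (adjusted p = 0.0475), from 61.6 and 110 CPM to between 15.7 and 67.5 CPM. Cxcr6, the receptor usually named for residency in the liver, did not pass (1.74 ± 0.61, adjusted p = 0.165), with 72.2 and 219.7 CPM in the controls and 135, 554, 574, 157, 197 and 490.1 CPM in the NASH mice.

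Among NK-type receptors and adaptors, 1 of 10 tested rose and 0 fell, with a median of 1.04. Klre1, a lectin-like receptor (chr6:129577905-129585827, plus strand), stood at 8.29 and 0 CPM in the controls, at 124, 151 and 429 CPM in the HFD+F+CCl4 mice and at 54.1, 91.4 and 181 CPM in the WD+F+CCl4 mice, a change of 4.31 ± 0.82 (adjusted p = 0.0196). Klrd1, whose product pairs with other NK receptors, stood at 281 and 238 CPM against 240 to 1091 CPM (adjusted p = 0.297), and the adaptor Hcst at 580.2 and 476 CPM against 652 to 1093 CPM (adjusted p = 0.344). The 2 genes of the limits, Klrb1c and Ncr1, are at 0 by choice.

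Of 20 genes of the T cell receptor complex and its signals tested, 1 fell and 0 rose, with a median of 0.05. Cd28, the costimulatory receptor of naive cells (chr1:60716800-60773359, plus strand), stood at 212 and 366 CPM in the controls, at 135, 101 and 90.0 CPM in the HFD+F+CCl4 mice and at 89.5, 73.1 and 86.9 CPM in the WD+F+CCl4 mice, a change of -1.44 ± 0.23 (adjusted p = 0.00665). Ptprc, the leukocyte antigen CD45, stood at 1591 and 1373 CPM in the controls and between 1225 and 1720.3 CPM in NASH, a fitted difference of -0.01 ± 0.28 (adjusted p = 0.997). Its sign turned with other settings, so no direction is given.

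The other lists held few called genes. Interferon-stimulated genes had 1 lower and 0 higher of 29 tested (median 0.14), the 1 being Igtp, a GTPase of interferon gamma responses, at 97.1 and 128 CPM in the controls and 24.8 to 50.7 CPM in NASH (-1.52 ± 0.33, adjusted p = 0.0303). Psmb8, an immunoproteasome subunit of the same list, was at 289 and 329.6 CPM against 517 to 865 CPM and just missed the threshold (1.26 ± 0.31, adjusted p = 0.0546). Immediate early genes had 1 higher and 0 lower of 25 (median 1.01), the 1 being Dusp2, a phosphatase that dampens MAP kinase signals, at 47.4 and 54.9 CPM in the controls and 82.8 to 236 CPM in NASH (1.53 ± 0.33, adjusted p = 0.0302). Ribosomal proteins had 0 higher and 2 lower of 81 (-0.27), nuclear genes of the respiratory chain 1 higher and 0 lower of 75 (0.44) and the mitochondrial genome 1 higher and 2 lower of 18. None passed of 16 in the cytokine receptor list, which does not hold Il7r (median 0.33), 11 heat shock chaperones (0.36) or 14 glycolysis genes (0.37). Their most abundant members were Il2rb and Il2rg, Hsp90ab1 and Hspa8, and Gapdh and Ldha. Gapdh, for example, stood at 367 and 385 CPM in the controls and at 394 to 787 CPM in NASH (0.65 ± 0.31, adjusted p = 0.326).

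**Figure D4:**
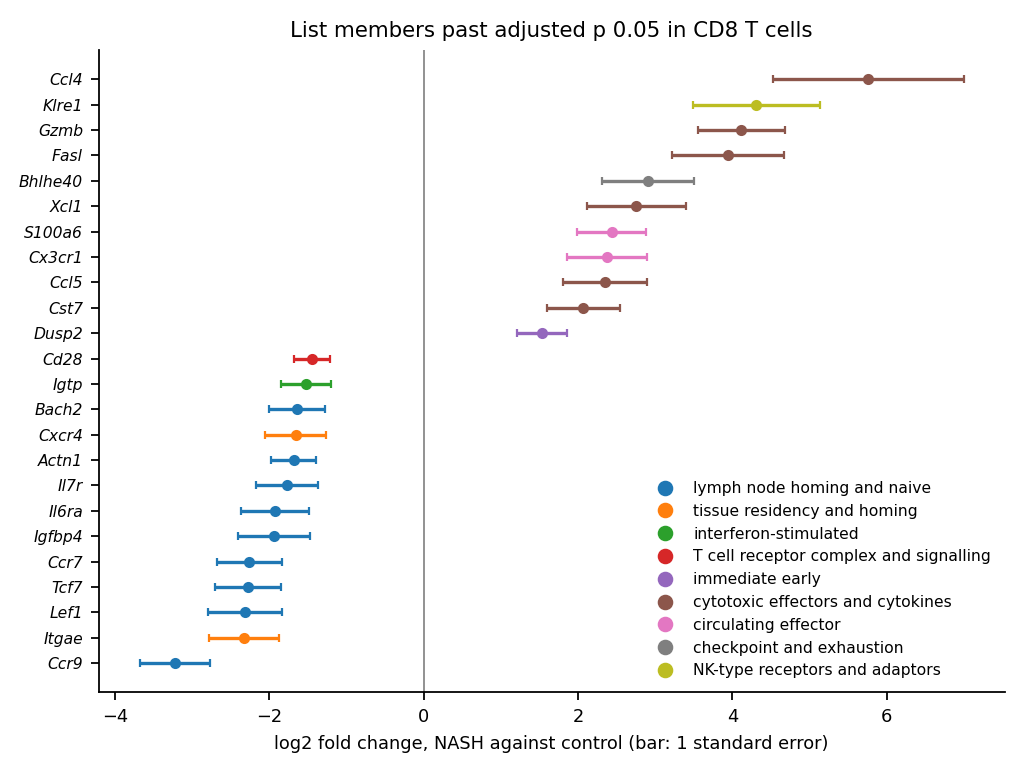
Log2 fold change of NASH against control for the 24 members of the T cell lists that passed an adjusted p of 0.05, with points for the fitted value, bars for 1 standard error and colours for the list. All 6 cytotoxic genes lie to the right of 0, up to Ccl4 (5.76), and all 9 naive and homing genes to the left, down to Ccr9 (-3.22).

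Outside the lists, the 8 largest rises among genes with a mean log2 CPM of at least 5 were Gpnmb, Csf1, Serpina3g, Zcchc18, Lilr4b, Cebpb, Mdfic and Rnf43. Gpnmb, which encodes a membrane glycoprotein abundant in macrophages of injured tissue, and Csf1, the growth factor of macrophages, had 0 UMIs in both controls. Against a floor of 3 UMIs over the controls' sum, Gpnmb was at least 11.8-fold higher and Csf1 at least 11.9-fold higher in the NASH sum (adjusted p = 0.0347 and 0.0463). Both bounds rest on control replicate 1, with 844571 of the controls' 899184 UMIs. Control replicate 2 alone, where 1 UMI is worth 18.3 CPM, would give neither. Gpnmb stood at 124, 70.7 and 25.7 CPM in the HFD+F+CCl4 mice and at 25.3, 11.0 and 42.2 CPM in the WD+F+CCl4 mice, and Csf1 at 22.5, 49.5 and 77.1 CPM and at 8.45, 5.48 and 33.8 CPM. HFD+F+CCl4 replicates 1 and 2, highest in Gpnmb, were also highest in macrophage markers. Control replicate 2 had 0.544% of UMIs from those markers and no Gpnmb UMI. At 18.3 CPM for 1 UMI, that 0 says little. The part of macrophage RNA in Gpnmb was not tested.

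Serpina3g, an inhibitor of proteases in activated T cells (chr12:104236245-104241939, plus strand), stood at 4.74 and 0 CPM in the controls, at 112, 363 and 431 CPM in the HFD+F+CCl4 mice and at 145, 146 and 444 CPM in the WD+F+CCl4 mice, a change of 5.84 ± 0.89 (adjusted p = 0.00530) that passed in 19 of 20 alternatives. Cebpb, a transcription factor, had 3 UMIs in the controls and 245 in the NASH mice, a pooled ratio of 19.1 (95% counting interval 6.47 to 93.4, adjusted p = 0.00264). Lilr4b, an inhibitory receptor, had 2 and 211 (ratio 24.7, interval 6.76 to 205), Zcchc18 had 2 and 212 (24.8, 6.79 to 206) and Rnf43, which encodes a ubiquitin ligase, had 2 and 128 (15.0, 4.07 to 125). These counting intervals pool UMIs over mice and do not cover the spread between mice. Mdfic rose by 3.93 ± 0.90 (adjusted p = 0.0403). Without control replicate 1 the fitted change was 1.88 for Zcchc18, 1.86 for Lilr4b and 1.28 for Rnf43, and for Serpina3g, Cebpb and Mdfic, as for Klre1 above, the remaining control was at 0.

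The 8 largest falls outside the lists were Serpina3k, Igha, Gc, Scd1, C3, Mir6236, Sidt1 and Dtx1. Serpina3k, Gc and C3 encode proteins that hepatocytes secrete into plasma, and Igha is the constant part of the IgA heavy chain of B lineage cells. Serpina3k stood at 400.2 and 256 CPM in the controls and between 0 and 33.7 CPM in NASH (-5.25 ± 0.54, adjusted p = 4.51e-04). Igha stood at 72.2 and 366 CPM in the controls and between 1.69 and 28.3 CPM in NASH (-3.77 ± 0.52, adjusted p = 0.00306). Among the named genes' changes of NASH against control, Igha alone passed in all of its alternatives, 19 of 19. Dtx1, a regulator of Notch signals in lymphocytes (chr5:120680202-120711927, minus strand), stood at 103 and 110 CPM in the controls, at 22.5, 16.5 and 13.9 CPM in the HFD+F+CCl4 mice and at 45.6, 31.1 and 31.4 CPM in the WD+F+CCl4 mice, a change of -2.13 ± 0.30 (adjusted p = 0.00310). Sidt1, a membrane protein, fell by 2.36 ± 0.48 (adjusted p = 0.0263), though HFD+F+CCl4 replicate 1 and control replicate 2 were level at 146 CPM and the change was -1.17 without control replicate 1.

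RNA of other cells moved with these groups. The 21 hepatocyte genes together took 0.436% and 0.361% of the CD8 UMIs of control replicates 1 and 2, 0.137%, 0.180% and 0.028% for the HFD+F+CCl4 mice and 0.027%, 0.014% and 0.078% for the WD+F+CCl4 mice. All 21 had a UMI, Alb, the gene of albumin, was the most abundant at 1227 and 696 CPM in the controls and 11.0 to 594 CPM in NASH, and 12 of the 21 fell. With cells of over 0.5% hepatocyte UMIs left out, 4 of them fell and 94 genes in all passed. The B cell list took 0.070% and 0.225% in the controls and 0.012% to 0.033% in NASH, led by Igkc, with Cd79a at 0 by the limits, and 2 of its 4 genes tested fell.

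The monocyte and macrophage list took 0.135% and 0.544% in the controls, 0.693%, 0.547% and 0.416% for the HFD+F+CCl4 mice and 0.217%, 0.170% and 0.376% for the WD+F+CCl4 mice. It was led by Apoe, 16 of its 17 genes had a UMI with Csf1r at 0 by the limits, and none of 16 tested passed (median 1.72). The erythroid list, led by Hbb-bs, reached 0.703% in HFD+F+CCl4 replicate 2 and 0.331% in WD+F+CCl4 replicate 3 and was at most 0.123% elsewhere. The neutrophil list, led by S100a9, reached 0.4933% in HFD+F+CCl4 replicate 2. The part of this RNA in the fold changes above was not tested.

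The NK cell list, led by Tyrobp and with Ncr1 and Klrb1c at 0 by the limits, took 0.014% and 0.049% in the controls and 0.022% to 0.046% in NASH. The gamma-delta list, led by Tcrg-C2 and with Trdc at 0 by the limits and Il17a at 0 in every mouse, took 0.004% and 0.013% in the controls, 0.007%, 0.032% and 0.032% for the HFD+F+CCl4 mice and 0.005%, 0.008% and 0.068% for the WD+F+CCl4 mice. It was thus highest in the 3 mice high in Pdcd1 and Lag3. The regulatory and helper CD4 list, led by Ikzf2 and with Cd4 at 0 by the limits, took 0.027% and 0.028% in HFD+F+CCl4 replicates 2 and 3, 0.010% in WD+F+CCl4 replicate 3 and at most 0.009% elsewhere. The part of these lists in the Pdcd1 and Lag3 values was not tested. Endothelial (at most 0.072%) and stellate (at most 0.039%) lists had no called gene, as had the cycling list, led by Hmgb2 with Top2a at 0 by the limits, at 0.029% to 0.139%. The cholangiocyte and platelet lists took at most 0.002% each, and none of their genes had enough UMIs to be tested.

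Some features separated the control libraries from the NASH libraries in the 3 T cell classes examined, CD8, conventional CD4 and NKT-like. In CD8 T cells mt-Nd3, a mitochondrial gene, stood at 4.74 and 0 CPM in the controls and between 616 and 1709 CPM in NASH. The pseudogene Gm28438 stood at 452 and 165 CPM in the controls and at most at 1.69 CPM in NASH, and Gm10076 at 366 and 91.6 CPM against 1648 to 2814 CPM. In conventional CD4 T cells mt-Nd3 was at 3.57 and 0 CPM against 666 to 1724 CPM, and in NKT-like cells at 3.93 and 6.20 CPM against 599 to 1357 CPM. Library and group cannot be told apart here, since no control and NASH mouse share a library, and whether the control libraries were made or counted in another way cannot be told from NASH either. Among the 196 genes were 6 higher and 17 lower of 431 tested with Gm or Rik symbols. Ribosomal proteins or their pseudogenes had 1 higher and 4 lower of 111, and mitochondrial genes 1 higher and 2 lower of 18. Over all genes tested, 0.722% were higher and 1.52% lower. The part of such differences in the 196 was not tested. Ribosomal proteins took 35.4% and 25.4% of UMIs in the controls, 25.6%, 23.3% and 23.1% for the HFD+F+CCl4 mice and 34.4%, 33.5% and 20.9% for the WD+F+CCl4 mice, so they varied within groups as much as between them.

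**Figure D5:**
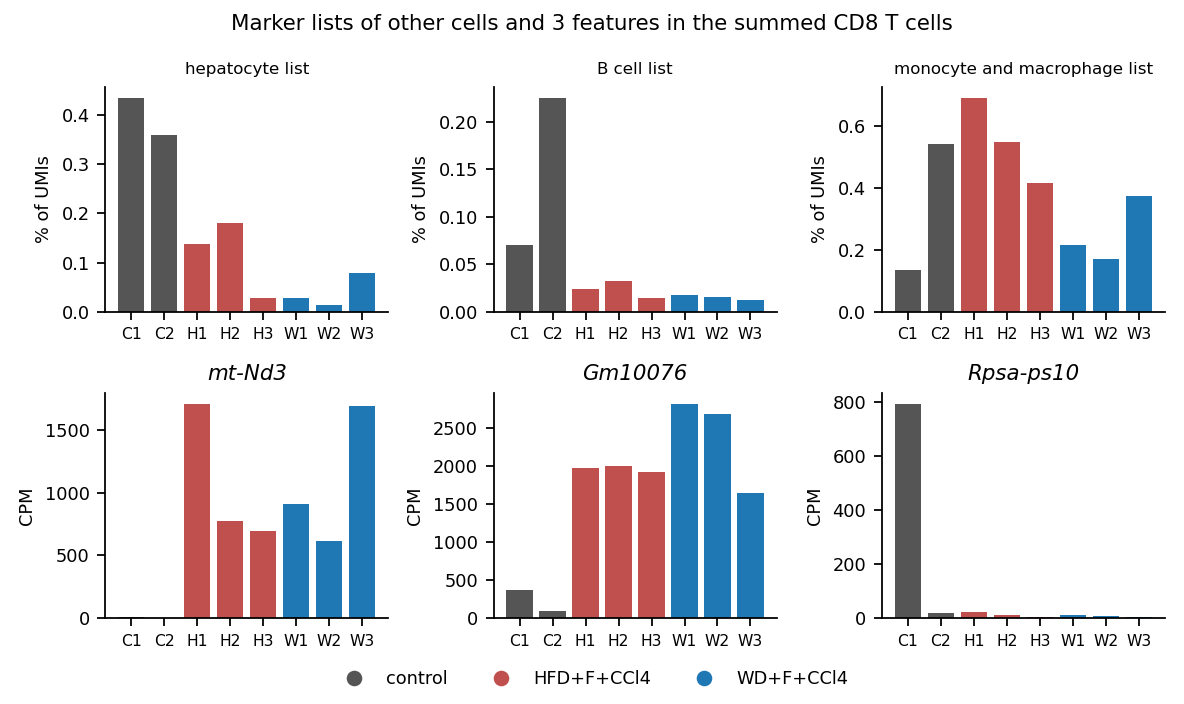
Percent of the CD8 T cells' UMIs from the hepatocyte, B cell and monocyte and macrophage lists (top) and CPM of mt-Nd3, Gm10076 and Rpsa-ps10 (bottom), with 1 bar per mouse on linear axes (C1 and C2 control, H1 to H3 HFD+F+CCl4, W1 to W3 WD+F+CCl4). Hepatocyte genes are at 0.436% and 0.361% in the controls and at most 0.180% in NASH, mt-Nd3 is at 4.74 and 0 CPM in the controls and at least 616 CPM in NASH, and Rpsa-ps10 is high in C1 alone (791 CPM).

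No gene passed between the 2 models, none of 8729 (0.0%), with edgeR or with DESeq2, where 407 and 128 genes had an unadjusted p under 0.05. Without WD+F+CCl4 replicate 3, 63 passed. Differences within a model were large: Pdcd1 spanned 11.2 to 463 CPM in HFD+F+CCl4 and 12.8 to 241 CPM in WD+F+CCl4 mice, and the fitted difference was -1.57 ± 0.82 (adjusted p = 0.988). For Gzmb it was 0.21 ± 0.33 (adjusted p = 0.995). For Dtx1, lower in all HFD+F+CCl4 than in all WD+F+CCl4 mice, it was 1.33 ± 0.35 (adjusted p = 0.765).

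The change with NASH was then compared with that in the 967 conventional CD4 T cells of the same mice, as an interaction with the mouse as a block. Of 8085 genes tested 75 passed (0.928%), 57 with a higher change in CD8 T cells (0.705%) and 18 with a lower one (0.223%). Without control replicate 1, 2 passed, with DESeq2 22, and without HFD+F+CCl4 replicate 1 and replicate 3 128 and 39. The 5 largest in the higher direction were Nrgn, Klre1, Cd244a, Gzma and Tcrg-C4. Cd244a and Klre1 encode receptors of cytotoxic lymphocytes.

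Gzma, at 41.4 and 824 CPM in control and 101 to 3339 CPM in NASH CD8 T cells, was at 51.8 and 73.7 CPM in control CD4 T cells and at 0, 16.9, 75.0, 0, 5.08 and 0 CPM in NASH CD4 T cells (interaction 6.80 ± 0.74, adjusted p = 2.21e-08). Klre1 was at 23.2 and 59.0 CPM in control CD4 T cells and at most at 8.65 CPM in NASH CD4 T cells (7.80 ± 0.78, adjusted p = 5.84e-09), and passed in all 12 alternatives. Tcrg-C4, a constant part of a gamma chain that some CD8 T cells also transcribe, stood at 92.9 and 88.5 CPM in control and 0 to 16.9 CPM in NASH CD4 T cells, beside 13.0 and 18.3 CPM in control and 0 to 211 CPM in NASH CD8 T cells (6.69 ± 0.63, adjusted p = 3.36e-09). For Klre1 and Tcrg-C4 all 6 NASH mice lay below both controls in CD4 T cells, and for Gzma 5 of 6 did, with HFD+F+CCl4 replicate 3 at 75.0 CPM above both. The fitted sizes depend on the zeros. Gzma passed in 9 of 12 alternatives and Tcrg-C4 in 10 of 12, and the change of Gzma within CD8 T cells alone did not pass.

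In the lower direction the 5 were Gprin3, Gpr183, Nt5e, Tnfsf8 and Il7r. Il7r fell in CD8 T cells, from 912 and 677 CPM to between 136 and 393 CPM, while in CD4 T cells it stood at 459.9 and 147 CPM in the controls and at 399, 598, 1006, 613, 661 and 157 CPM in NASH (-2.68 ± 0.41, adjusted p = 4.77e-05). Gpr183, a receptor for oxysterols that guides lymphocytes, stood at 98.3 and 36.6 CPM in control and 32.6 to 124 CPM in NASH CD8 T cells, against 33.9 and 0 CPM in control and 69.8 to 325 CPM in NASH CD4 T cells (-3.28 ± 0.45, adjusted p = 5.54e-06). Nt5e, the ectoenzyme CD73 (-2.89 ± 0.63, adjusted p = 0.00814), and Tnfsf8, a ligand of the TNF family (-2.69 ± 0.55, adjusted p = 0.00351), had the same order, with all 6 NASH mice above both controls in CD4 T cells. The CD4 T cells of control replicate 2 and HFD+F+CCl4 replicate 1 numbered 34 and 21.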

How the data were processed

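Livers were dissociated and run on the 10x 3′ platform (V3 chemistry), 1 library per mouse. The authors deposited UMI counts, whole numbers that are not normalized, as 1 matrix of 55450 genes and 88581 barcodes made with Cell Ranger on GRCm38 (bcl2fastq 2.20). The sources used here do not give the annotation release. Mice were told apart by barcode suffix, and 0 columns were left unused. Counts for 108 symbols that name more than one gene ID were kept apart by ID.

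UMIs were summed per mouse over CD8 T cells and tested with edgeR 4.0.16 (quasi-likelihood, TMM, filterByExpr, limma 3.58.1, R 4.3.3), all 8 mice in 1 fit and Benjamini-Hochberg adjustment. DESeq2 1.42.0 was an alternative. Shares were compared by exact two-sided permutation tests over mice (scipy 1.17.1). Detection shares used cells thinned to 1000 UMIs, without shallower cells. Doublets were ranked by Scrublet (scanpy 1.11.5) and left out as an alternative, 0.8% per 1000 barcodes, which marked 7452 cells and 51 CD8 T cells; the main results keep them. The code was tested on simulated counts. Gene positions are GENCODE, GRCm38, and promoters RefSeq, GRCm38.p6.

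Members and lists were chosen with earlier results of these data known. Named genes were Gzmk, Pdcd1 and Tox, up to 4 called genes with the largest change per list or else the 2 most abundant, the 8 largest rises and falls outside the lists at a mean log2 CPM of 5 or more, and the 5 largest interactions each way. Genes named beyond this (Il7r, Ccl5, Cst7, Gzma, Lag3, Havcr2, Cxcr6, Ly6c2 and Eomes among them) were chosen after their values were seen. Depth per mouse and the value of 1 UMI are given with the results, and p-values measure the spread between mice. Some results are not reported here.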

Additional observations from a re-analysis of the deposited data

Results flagged for a closer look

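Among 55 sets of 6 NASH values checked, 4 held a mouse far from the other 5, and chance flags about 1 set in 20. Cxcr4 was at 67.5 CPM and Sidt1 at 146 CPM in HFD+F+CCl4 replicate 1, which has 26 cells. Klre1 was at 429 CPM in HFD+F+CCl4 replicate 3, and Hcst at 1093 CPM in WD+F+CCl4 replicate 2.

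The change with NASH differed between CD8 and conventional CD4 T cells, by the edgeR interaction test, for the 10 genes named. The log2 difference was 8.80 for Nrgn (adjusted p = 0.0262), 7.80 for Klre1, 7.76 for Cd244a (adjusted p = 0.00127), 6.80 for Gzma and 6.69 for Tcrg-C4, and -3.61 for Gprin3 (adjusted p = 8.31e-04), -3.28 for Gpr183, -2.89 for Nt5e, -2.69 for Tnfsf8 and -2.68 for Il7r. Nrgn was at 0 CPM in both controls and in 3 NASH mice in CD8 T cells and at 66.0, 285 and 50.7 CPM in HFD+F+CCl4 replicates 2 and 3 and WD+F+CCl4 replicate 3. Without control replicate 1, 1 of the 10 passed, and with DESeq2 5 of the 9 it gave an adjusted p for. With NKT-like cells in place of CD4 T cells 5 passed, Klre1, Gpr183, Nt5e, Tnfsf8 and Il7r, and 5 did not, Nrgn, Cd244a, Gzma, Tcrg-C4 and Gprin3.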

How the results depend on the processing

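The share of CD8 T cells among kept cells, NASH minus control (0.471 percentage points), was -0.852 with more than 1000 genes per cell, -1.11 with 1 UMI in place of 2, -0.173 with cells of over 0.5% hepatocyte UMIs left out, -0.111 without both mice under 50 cells (chosen after seeing the data) and 12.7 as a share of T cells. Leaving out a mouse gave -0.460 to 1.40. WD+F+CCl4 minus HFD+F+CCl4 (0.133) was -0.272 in thinned cells and -0.261 with more than 1000 genes, and -0.706 to 0.595 leaving out a mouse, with -0.249 without WD+F+CCl4 replicate 3. The detection differences kept their sign under every alternative run, with 4.17 to 12.9 for Gzmk, 10.5 to 17.1 for Pdcd1 and 14.4 to 22.3 for Tox leaving out a mouse. Without thinning they were larger, at 17.7 for Gzmk (8.53 in the main setting), 24.2 for Pdcd1 (14.4) and 31.0 for Tox (18.1).

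Of genes called between NASH and control (196), DESeq2 called 102, leaving out cells of over 0.5% hepatocyte UMIs 94, no filter beyond 1 count 625 and sums thinned to the lowest total 13, where fewer genes were tested. Leaving out a mouse gave 4 to 346. For HFD+F+CCl4 against control (111) the count was 217 without the highest doublet scores, 62 by library size only, 578 with no filter, 342 with only the groups compared, 3 in thinned sums, 229 without both mice under 50 cells and 0 to 512 leaving out a mouse. For WD+F+CCl4 against control (81) it was 134 with 1 UMI, 31 without cells of over 0.5% hepatocyte UMIs, 131 without the highest doublet scores, 422 with no filter, 5 in thinned sums and 4 to 120 leaving out a mouse. Between the models (0) it was 123 with no filter and 0 to 63 leaving out a mouse. The interaction (75) had 22 with DESeq2 and 2 to 128 leaving out a mouse. The causes were not tested.

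With replicate number as a block, 29 genes were called for NASH, 9 for HFD+F+CCl4, 31 for WD+F+CCl4 and 1 between the models. Mice share only a number, since the deviations of same-numbered mice correlated at -0.125 to 0.089 (Pearson), so this replicate block is not a pairing. For named genes, 801 values of NASH against control kept direction and side of the threshold. That count includes genes not called in the main fit that stayed uncalled. Another 176 lost the call, 16 gained it and 6 turned sign. These were Ptprc (main value -0.01), at 0.18 with 1 UMI, 0.025 with no filter, 0.10 with the block, 0.03 without WD+F+CCl4 replicate 3 and 0.47 without control replicate 1 (leaving out a mouse gave -0.29 to 0.47), and Ldha, at -0.044 in thinned sums. Library size only moved the median of all genes to 0.15 for HFD+F+CCl4 and -0.11 between models, and leaving out control replicate 1 moved that for NASH to 0.30. With 24 and 26 cells, control replicate 2 and HFD+F+CCl4 replicate 1 limit what low genes can show.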
